A study of Rattus norvegicus with 2 samples.

Results

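The regions described here are strong Sox10 binding sites at which Chd7 was not called. They are Sox10 peaks on chromosomes 1 to 20 with a caller score of at least 500, a width below 1500 bp and no Chd7 peak within 1 kb of either edge. Of the 38915 peaks in the Sox10 list, 1869 met all of these conditions. They were set beside the 1668 Sox10 peaks of the same score and width range that overlapped a Chd7 peak by at least 1 bp, called the Chd7-bound peaks below. Both kinds were defined by the peak calls themselves, so the absence or presence of Chd7 on them is how they were chosen and not a result.

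The data came from rat oligodendrocytes, the glia that wrap axons of the central nervous system in myelin. Primary progenitors from Sprague Dawley rats were differentiated in culture for 3 days with T3, the active thyroid hormone, and both samples share this treatment. One sample was chromatin precipitated with an antibody against Sox10 and the other with an antibody against Chd7, with 1 library each. The cells are a primary culture rather than tissue, the labels state no number of animals, and peak lists cannot be used to check the labelled cell type against expressed markers. The caller score ranks peaks within a list, its scale is not stated, and no count of reads accompanies it. The depth behind each peak is therefore unknown. Since each antibody has 1 library, no value has a replicate error and no difference is tested. Shares carry 95% Clopper-Pearson intervals (exact binomial), and all intervals cover counting error alone. Neighbouring peaks share regions of the genome and are not replicates.

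Sox10 is a transcription factor of the SoxE group. It binds DNA in the minor groove through its HMG box, bends it, and is required for oligodendrocytes to differentiate and to switch on myelin genes. Chd7 is a chromodomain helicase that uses ATP to move nucleosomes, often at enhancers, and its gene is mutated in CHARGE syndrome. By its title, the study concerns how both proteins act together in myelination, and the regions described here are the strong Sox10 sites that lie outside that overlap.

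Strong Sox10 peaks either had a Chd7 peak directly on them or none nearby. Of the 3564 peaks in the score and width range, 46.8% (95% interval 45.2% to 48.5%) carried Chd7 and 52.4% (50.8% to 54.1%) had no Chd7 peak within 1 kb. Only 27 peaks, or 0.758% (0.500% to 1.10%), had Chd7 near the peak without touching it. Among all 38028 Sox10 peaks on these chromosomes, of any score and width, 82.5% had no Chd7 peak within 1 kb and 15.9% overlapped one. The share without Chd7 was thus lower among strong narrow peaks than over the whole list, although more of them lacked Chd7 than carried it. Among the 34071 weaker peaks, with scores below 500, the share without Chd7 was 86.0%. Among the 393 broad peaks of the same score range, 1500 bp wide or more, it was 49.4% (44.3% to 54.4%), which overlaps the interval for the narrow ones.

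**Figure D1:**
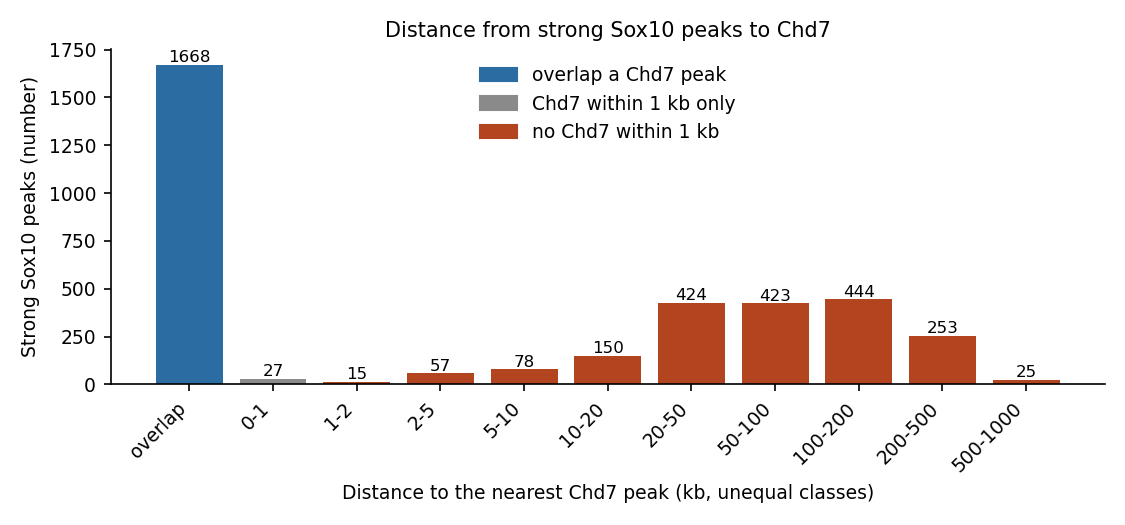
Number of strong Sox10 peaks (score 500 or more, width below 1500 bp, chromosomes 1 to 20) by distance to the nearest Chd7 peak in kb, in classes of unequal width. Blue marks the 1668 peaks that overlap Chd7, grey the 27 with Chd7 within 1 kb only, and red the 1869 without it, most of which lie 20 to 200 kb away.

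The rule fixes only that Chd7 lies more than 1 kb from the strong Sox10 peaks that lacked it. Their median distance to the nearest Chd7 peak was 71.0 kb (distribution-free 95% interval of the median 66.5 to 76.9 kb), with quartiles of 30.9 and 147 kb. This was somewhat longer than in other sets of Sox10 peaks, measured to a Chd7 peak at least 1 kb away. The median was 62.7 kb (61.6 to 63.9) for the weaker Sox10 peaks without Chd7 and 57.1 kb (51.8 to 61.7) for the Chd7-bound peaks. Over all Sox10 peaks on these chromosomes it was 60.9 kb (59.9 to 61.9). A Chd7 peak lay within 10 kb of 8.03% of the strong peaks without Chd7, within 50 kb of 38.7% and within 200 kb of 85.1%. The remaining peaks included 25 that were more than 500 kb from any Chd7 call. The distance showed no steady order with the score of the Sox10 peak. Its median was 70.5 kb for scores of 500 to 600 (n = 564), 63.0 kb for scores of 1000 to 1500 (n = 285) and 80.3 kb for scores of 1500 or more (n = 123). The intervals of these medians, 64.2 to 81.1, 54.2 to 75.2 and 54.0 to 101 kb, overlap each other.

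Where Chd7 was present, it sat inside the Sox10 peak and close to its centre. The median distance between both centres was 66 bp, with quartiles of 31.5 and 123 bp, and 90.0% of the Chd7-bound peaks had the centre of their Chd7 peak within 200 bp. In 97.5% a Chd7 peak lay wholly inside the Sox10 peak, and 32 of the 1668 held 2 or more Chd7 peaks. The Chd7 calls on these peaks had a median score of 105 (quartiles 74.2 and 151), above the floor of 50 shared by all deposited Chd7 scores. Of the Chd7-bound peaks, 11.6% (10.1% to 13.3%) had a Chd7 score below 60, and 46.9% had one below 100. A weak Chd7 call therefore separated many of them from the peaks without Chd7. With Chd7 calls below 100 left out, the share of strong Sox10 peaks without Chd7 rises from 52.4% to 74.9%. Chd7 below the floor of 50 cannot be seen in these lists, so "without Chd7" means without a deposited call.

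The Chd7 score on the bound peaks tended to be higher where the Sox10 score was higher, though not at every step. Its median was 90.7 on Sox10 peaks scoring 500 to 600, 101 at 600 to 700 and 98.3 at 700 to 800. It was 114 at 800 to 1000, 120 at 1000 to 1500 and 143 at 1500 or more. The quartiles overlapped widely, at 71.5 and 126 for the first of these classes and 80.4 and 222 for the last.

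As a description of what the rule selected, the peaks without Chd7 were slightly weaker and narrower. Their median score was 705 (quartiles 581 and 947) against 771 (612 and 1094) for the Chd7-bound peaks, and their median width was 931 bp (807 and 1100) against 992 bp (869 and 1149). Scores of 1000 or more were reached by 408 peaks without Chd7, or 21.8%, and by 507 Chd7-bound peaks, or 30.4%. The ranges overlapped almost completely, from 500.2 to 3100 without Chd7 and from 500.5 to 3104 with it. In each of the 6 score classes, from 500 to 600 up to 1500 or more, peaks without Chd7 made up between 41.7% and 58.7% of the strong peaks.

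Within the strong range, the share without Chd7 was highest for narrow peaks. It was 71.5% (65.1% to 77.3%) for peaks narrower than 700 bp, 62.0% (57.4% to 66.4%) from 700 to 800 bp and 56.4% (52.5% to 60.2%) from 800 to 900 bp. It was about level above that, at 47.2% from 900 to 1000 bp, 48.1% from 1000 to 1200 bp and 46.4% (42.4% to 50.4%) from 1200 to 1500 bp. The narrowest class is small, with 158 of 221 peaks lacking Chd7. By score, the share went from 58.7% at 500 to 600 to 41.7% at 1500 or more. Score separated them mainly among wide peaks. Of peaks at least 1000 bp wide, 54.3% (50.7% to 57.9%) lacked Chd7 at scores of 500 to 800 and 40.8% (37.4% to 44.3%) at scores of 800 or more. Of peaks narrower than 800 bp, 63.4% (58.9% to 67.8%) lacked it in the lower and 68.7% (62.0% to 74.9%) in the higher score class, and these intervals overlap. Score and width entered the rule, so these shares carry no test.

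**Figure D2:**
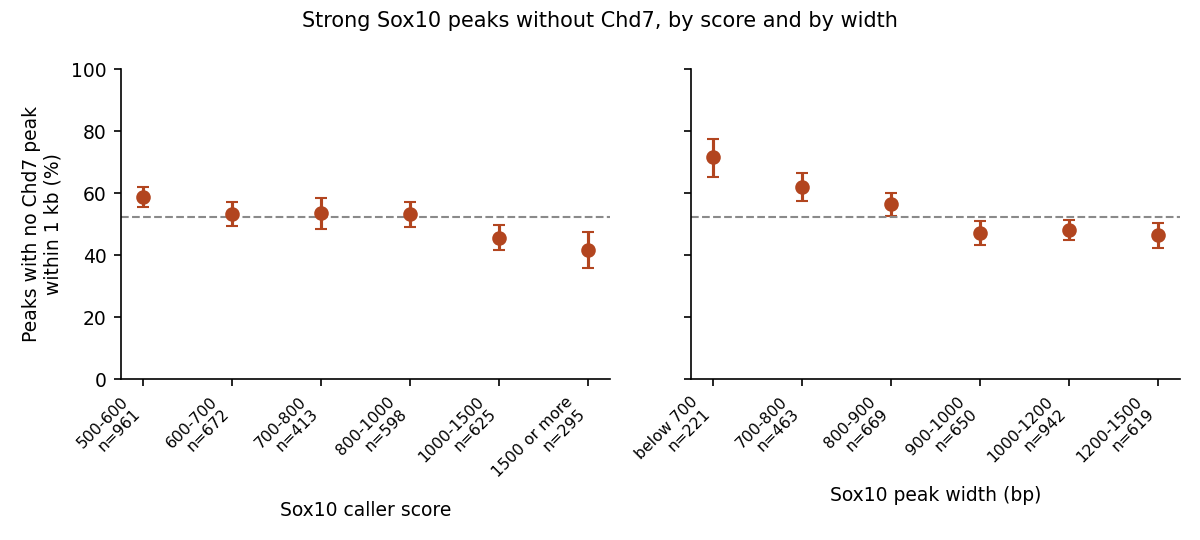
Percentage of strong Sox10 peaks with no Chd7 peak within 1 kb, by Sox10 caller score (left) and by peak width in bp (right), with 95% exact binomial intervals and n below each class. The dashed line is the share over all 3564 peaks, 52.4%, and the share falls from 71.5% in the narrowest class to 46.4% in the widest.

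The values at the limits of the rule were continuous. The peaks just inside the score limit scored 500.24, 500.34 and 500.49, and those just outside it, otherwise alike, scored 499.22, 499.55 and 499.85. The widest peaks kept were 1496, 1497 and 1499 bp wide, and the next ones were 1500, 1503 and 1505 bp. The nearest Chd7 peaks allowed were 1053, 1059 and 1062 bp away, and the farthest that removed a Sox10 peak were 945, 957 and 991 bp away. The limits therefore cut through a continuous range of scores and widths, whereas few peaks lay near the limit on distance.

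The 12 strongest peaks without Chd7 came from 9 chromosomes. Of these, 4 reached a score of 3100, a value at which several Sox10 peaks are tied: chr19:52934933-52936057, chr14:106463655-106464789, chr7:3026889-3028116 and chr10:76029035-76030375. Positions are 1-based on rn5. Their nearest Chd7 peaks were 215, 57.4, 38.9 and 201 kb away, with Chd7 scores of 53.8, 52.1, 62.9 and 154. All but the last of these Chd7 scores were near the floor of the Chd7 list.

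The next in order was chr18:55276205-55277163, with a score of 3026 in only 959 bp and Chd7 63.0 kb away. The other 7 of the 12 scored from 2747 to 2971. They were chr7:83361993-83363427, chr4:219980755-219982096, chr10:90988361-90989850, chr9:81629659-81630910, chr7:12312865-12314232, chr11:89430009-89431378 and chr1:102075333-102076478. Of these, the peak on chromosome 10 had the nearest Chd7 call, at 61.7 kb, and the peak on chromosome 1 the farthest, at 528 kb. For 11 of the 12, no Chd7 peak lay between 1 and 50 kb away; the peak on chromosome 7 at 3026889 had 2. Among the Chd7-bound peaks 10 scored 3100 or more, of which 8 were tied at 3100. The 2 above the tie carried Chd7 peaks that scored 189 and 86.8, and the 3 narrowest of those tied carried Chd7 peaks that scored 63.7, 413 and 259. Sox10 peaks at the top of the score range were therefore found with no Chd7 call, with a call close to the floor and with a strong call.

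Every chromosome from 1 to 20 had strong peaks without Chd7, from 44 on chromosome 20 to 264 on chromosome 1. The highest-scoring one per chromosome had a median score of 2698 over the 20 chromosomes. The lowest of these, 1320, was chr16:6476033-6476677, only 645 bp wide and 12.7 kb from a Chd7 peak of score 125. Beyond the chromosomes named above, the strongest were chr3:78746986-78747746 (score 2746), chr5:156390215-156391237 (score 2650), chr17:12582769-12584250 (score 2574) and chr6:112462142-112463230 (score 2573). They were followed by chr13:83780494-83781420 (score 2511), chr12:4332357-4333284 (score 2502), chr8:68827163-68828236 (score 2411), chr20:5679158-5680040 (score 2201), chr15:8554869-8555577 (score 2158) and chr2:206691003-206692059 (score 2037). The peaks on chromosomes 3 and 15 were narrow, at 761 and 709 bp.

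The share of strong peaks without Chd7 varied among chromosomes. It ran from 43.0% (34.0% to 52.3%) on chromosome 18 to 65.9% (59.6% to 71.8%) on chromosome 10, with a median of 51.4% over the 20. Chromosome 10 was the 1 chromosome whose interval lay wholly above the share over all chromosomes, and chromosomes 2 (44.2%, 38.5% to 50.0%) and 18 were the 2 whose intervals lay wholly below it. Chromosome 10 held 162 peaks without Chd7 and 84 with it. It also had the most peaks without Chd7 per Mb of covered span, 1.44 against a median of 0.657, and the most Sox10 peaks of any score, 19.1 per Mb. Its density of Chd7 peaks, 4.73 per Mb, was within the range of the other chromosomes. Among all Sox10 peaks of chromosome 10, strong or weak, 85.3% had no Chd7 within 1 kb, against 82.5% over the chromosomes together. Chromosome 12 came next by density, with 1.38 peaks without Chd7 per Mb, and chromosome 13 was lowest at 0.431.

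**Figure D3:**
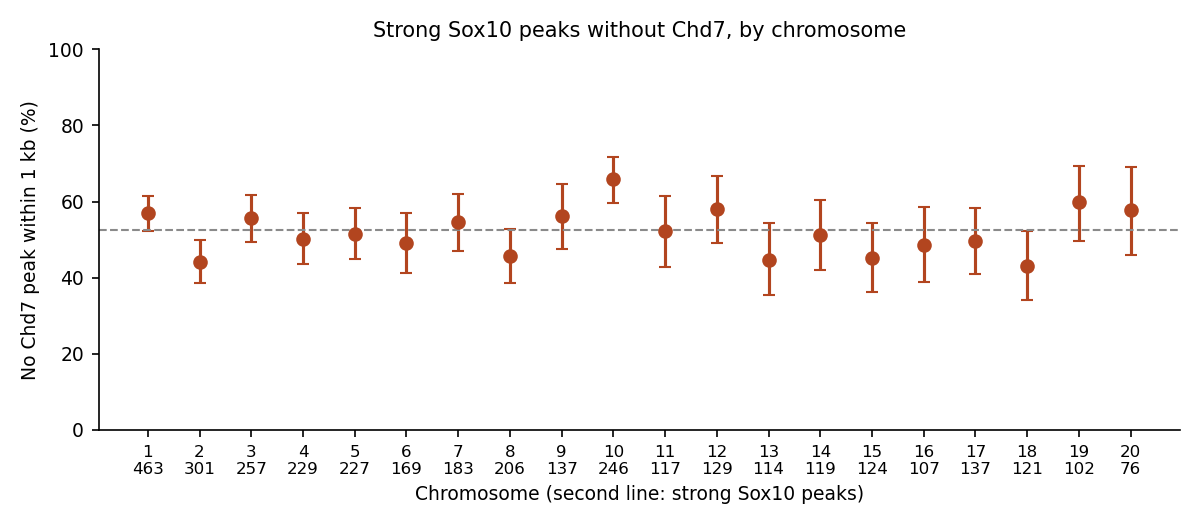
Percentage of strong Sox10 peaks with no Chd7 peak within 1 kb on each of the 20 chromosomes, with 95% exact binomial intervals; the number of strong Sox10 peaks stands under each chromosome. The dashed line is the share over all of them, 52.4%, and chromosome 10 (65.9%) is the only one whose interval lies wholly above it.

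The surroundings of the strong peaks without Chd7 held fewer Chd7 peaks than those of the Chd7-bound peaks. This was measured only beyond the 1 kb that the rule used. A Chd7 peak lay 1 to 50 kb away from 724 of the 1869 peaks without Chd7, or 38.7% (36.5% to 41.0%), and from 780 of the 1668 Chd7-bound peaks, or 46.8% (44.3% to 49.2%). The difference was -8.03 percentage points, peaks without Chd7 minus Chd7-bound peaks (95% Newcombe interval -11.3 to -4.76). It was -6.73 points when the Chd7-bound peaks were weighted to the scores and widths of the others. With Chd7 calls below 100 left out, the sets themselves changed, to 2670 peaks without such a call and 885 with one. The difference between these sets was -2.45 points, from 13.1% and 15.6%. Per 100 strong peaks, the ring from 5 to 10 kb held 4.76 Chd7 peaks around those without Chd7 and 9.23 around those with it, a ratio of 0.516, the lowest of 7 rings. The ratio was 0.582 from 1 to 2 kb, 0.742 from 2 to 5 kb, 0.551 from 10 to 20 kb, 0.753 from 20 to 50 kb, 0.792 from 50 to 100 kb and 0.905 from 100 to 200 kb. It was thus below 1 in each ring, with no steady order within 20 kb. The closest rings rest on few Chd7 peaks. From 1 to 2 kb there were 15 around peaks without Chd7 and 23 around Chd7-bound peaks, and from 2 to 5 kb 59 and 71.

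The nearest of those Chd7 peaks looked alike around both kinds. Beyond 1 kb, the nearest Chd7 peak overlapped a Sox10 peak in 63.6% (61.3% to 65.7%) of cases for the peaks without Chd7 and in 63.7% (61.3% to 66.0%) for the Chd7-bound peaks. Its median score was 67.7 (quartiles 56.6 and 93.5) and 68.9 (56.4 and 94.8). The surroundings thus differed in how many Chd7 peaks they held, while these 2 properties of the nearest one differed by less than the counting error or the quartile range.

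Other Sox10 peaks were also sparser close by than around the Chd7-bound peaks. Another Sox10 peak lay within 10 kb of 39.4% (37.2% to 41.6%) of the peaks without Chd7 and of 48.3% (45.9% to 50.8%) of the Chd7-bound peaks, a difference of -8.94 points (-12.2 to -5.67), which was -5.28 points at a score minimum of 300. Because the rule removes a Sox10 peak that has Chd7 on a neighbour less than 1 kb away, the count was repeated for 1 to 10 kb alone, where the shares were 35.2% and 42.6%. At wider range the gap closed and then reversed. Within 50 kb the shares were 87.6% and 88.5%. From 50 to 100 kb there were 248 Sox10 peaks per 100 strong peaks without Chd7 and 235 per 100 with it, and from 100 to 200 kb 458 and 412. The median distance to the nearest other Sox10 peak was 14.7 kb (13.6 to 16.0) against 10.6 kb (9.75 to 11.7), and over all Sox10 peaks on these chromosomes it was 13.2 kb. For the weaker Sox10 peaks without Chd7 it was 13.7 kb (13.4 to 14.0), which overlaps the interval of the strong ones. The Chd7-bound peaks thus lay farther from the value over all Sox10 peaks than the strong peaks without Chd7 did.

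**Figure D4:**
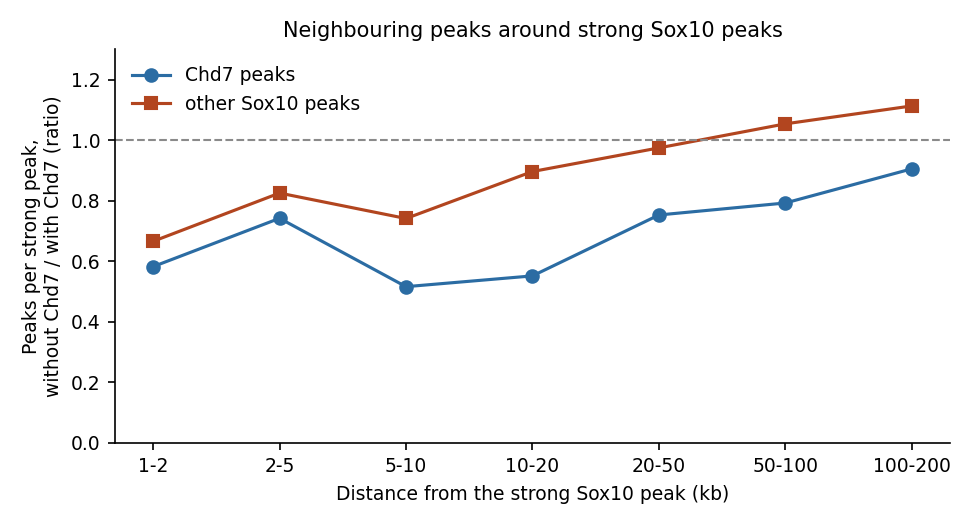
Ratio of the number of neighbouring peaks per strong Sox10 peak without Chd7 to that per strong Sox10 peak with Chd7, in rings from 1 to 200 kb (x axis, kb). Chd7 peaks (blue circles) stay below a ratio of 1 in every ring, from 0.516 at 5 to 10 kb to 0.905 at 100 to 200 kb, while other Sox10 peaks (red squares) rise from 0.666 to 1.11.

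Sox10 peaks near a strong peak without Chd7 overlapped Chd7 less frequently than those near a Chd7-bound peak, and the gap was wider where the neighbour was strong too. No test was made of this difference. Of the Sox10 peaks 1 to 50 kb away, 641 of 4744, or 13.5%, overlapped Chd7 around strong peaks without Chd7, and 846 of 4642, or 18.2%, around Chd7-bound peaks. Over all Sox10 peaks on these chromosomes the share was 15.9%. A neighbour of several strong peaks enters once for each, so the interval of the difference is too narrow. The difference was -4.71 points (-6.19 to -3.24). With Chd7 calls below 100 left out, which regroups the strong peaks into 2670 without and 885 with Chd7, it was -2.52 points. The nearest Sox10 peak beyond 1 kb had a score of 500 or more for 284 peaks without Chd7, and 25.0% (20.1% to 30.5%) of these strong neighbours overlapped Chd7. For 204 Chd7-bound peaks the nearest neighbour was that strong, and 61.3% (54.2% to 68.0%) of these neighbours overlapped Chd7. Among all strong peaks below 1500 bp the share was 46.8%, while the neighbours were not limited in width. When the nearest neighbour scored below 500, it overlapped Chd7 in 9.78% (8.36% to 11.3%) and 12.8% (11.1% to 14.6%) of cases. Strong peaks that are each other's nearest neighbour are counted from both sides, so these intervals are too narrow.

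Among successive strong peaks of this width range, 60.6% of the pairs 1 to 50 kb apart were alike. An uneven mix of both kinds already favours pairs that are alike, so the values below are set beside the share of their class. There were 497 successive pairs 1 to 50 kb apart in which each peak was either without Chd7 or Chd7-bound. In 194 both lacked Chd7, in 107 both carried it and in 196 they differed. The neighbour of a peak without Chd7 was itself without Chd7 in 66.4% of cases, and the neighbour of a Chd7-bound peak in 47.8%, where 58.8% of all peaks in these pairs lacked Chd7. For the 111 pairs 1 to 10 kb apart these values were 68.9% and 38.0%, with 55.0% of all paired peaks lacking Chd7. For the 386 pairs 10 to 50 kb apart they were 65.8% and 51.0%, with 59.8%. For the 856 pairs 50 to 200 kb apart they were 65.6% and 46.3%, with 57.4%. Both values lay farthest from the share of their own class in the closest pairs, and they include any difference between chromosomes. They lay farther from it at 50 to 200 kb than at 10 to 50 kb, so there was no steady order with distance.

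Among strong Sox10 peaks below 1500 bp, some stretches of the genome held only ones without Chd7. Broader peaks were not counted here. Of the 145 windows of 1 Mb with 5 or more strong peaks of this width, 13 had only peaks without Chd7 and 3 had none. The fullest were chr1:227000001-228000000 with 9 such peaks, chr20:7000001-8000000 and chr7:12000001-13000000 with 8 each, and chr17:11000001-12000000 with 7. Counted along each chromosome, 572 of the 1869 peaks without Chd7, or 30.6%, stood in 84 runs of 5 or more with no other strong peak of this width range between them. Of the Chd7-bound peaks, 381 of 1668, or 22.8%, stood in 61 such runs. Peaks without Chd7 are the more numerous kind, which by itself lengthens their runs. These windows and runs were singled out after their values were seen.

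The longest run had 18 peaks without Chd7 over 3.41 Mb, at chr20:4131258-7545150, with a median score of 1084. Chd7 was not missing from that stretch, which held 50 Chd7 peaks, but only 4 of them overlapped any of its 83 Sox10 peaks. The next had 17 peaks at chr1:225399415-228384318, where 14 Chd7 peaks and 117 Sox10 peaks lay, and 10 of the Chd7 peaks overlapped Sox10. A run of 15 peaks at chr1:101736962-102762325 was the most compact of the 8 longest, at 14.6 strong peaks without Chd7 per Mb. It held 47 Sox10 peaks and 0 Chd7 peaks. A single stretch could thus lack Chd7 altogether or hold many Chd7 peaks away from Sox10.

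The compact run on chromosome 1 contained strong peaks of very different score. Its peaks at chr1:102075333-102076478, chr1:102120357-102121542 and chr1:102467843-102469286 scored 2747, 2082 and 2025, and the other 12 scored from 507 to 1104. A further Sox10 peak in this stretch scored 1738 but was too broad for the rule, and no Chd7 peak overlapped it. The Chd7 calls that bound the run were 190 kb before its first peak, with a score of 62.0, and 17.0 kb after its last, with a score of 63.7. The latter lies on the Chd7-bound Sox10 peak chr1:102778892-102779953, which scored 3100. Both Chd7 calls were close to the floor of 50.

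**Figure D5:**
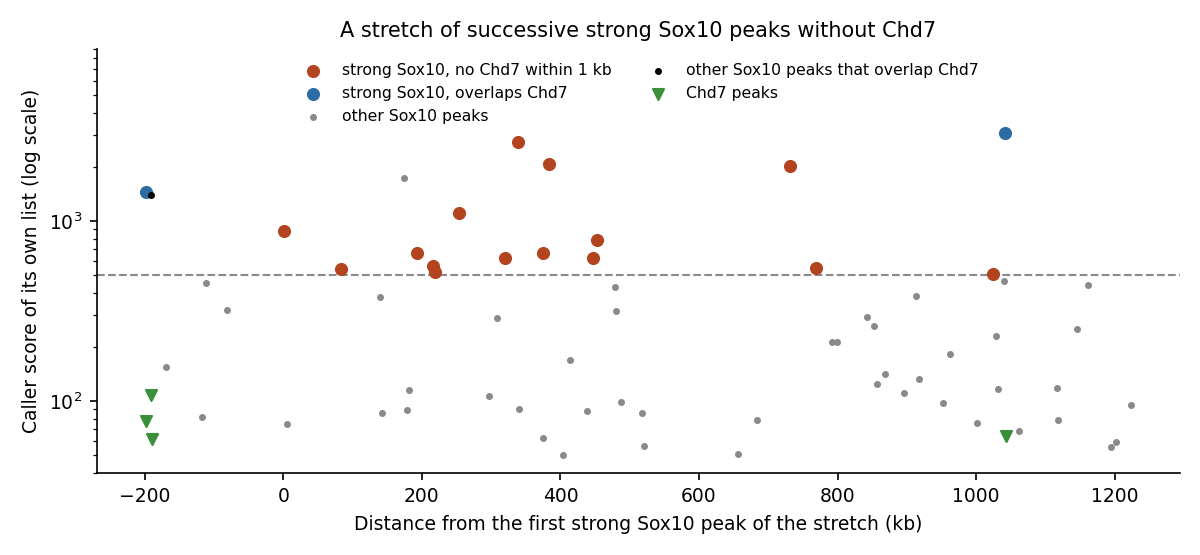
Peaks of both lists along the run of 15 strong Sox10 peaks without Chd7 on chromosome 1, with 200 kb on either side: distance from the first of the 15 in kb (x axis) and caller score of each peak in its own list (y axis, log scale). The dashed line is the score limit of 500, and no Chd7 peak (green triangles) lies between the first and the last of the 15 (red).

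The peaks without Chd7 that lay farthest from any Chd7 call were not the strongest ones. They were chr5:141033420-141034214, 973 kb from any Chd7 peak with a score of 517, and chr17:64916324-64917168, 731 kb away with a score of 637. They were followed by chr5:64758324-64759423 (671 kb), chr17:2105631-2106416 (667 kb) and chr10:108234779-108235699 (650.2 kb), with scores from 517 to 594. All 5 had other Sox10 peaks 1 to 50 kb away, between 1 and 4 of them.

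Crowded and solitary Sox10 sites both occurred among the peaks without Chd7. Those at chr17:45647664-45648980 (score 863), chr1:83400460-83401933 (score 612) and chr7:12585209-12586147 (score 509) each had 12 other Sox10 peaks 1 to 50 kb away. The peaks chr18:64573227-64574142 (score 615) and chr7:12624307-12625055 (score 520) each had 11. In 3 of these 5 surroundings no Chd7 peak lay 1 to 50 kb away, and the others had 1 and 2. At the other extreme, 248 peaks without Chd7, or 13.3% (11.8% to 14.9%), had no Sox10 peak 1 to 50 kb away, against 12.4% (10.8% to 14.0%) of the Chd7-bound peaks. The most solitary was chr6:151769353-151770036 (score 632), 1070 kb from the next Sox10 peak and 170.3 kb from Chd7. It was followed by chr16:89995828-89996477 (score 826), 740.4 kb from the next Sox10 peak but only 10.3 kb from a Chd7 peak of score 226. The peaks chr10:28388441-28389400, chr1:36679443-36680510 and chr6:97575910-97576388 were 355, 341 and 339.7 kb from another Sox10 peak.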

How the data were processed

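Each deposited file is a list of peaks with a chromosome, start, end, name and caller score, made by the authors from 1 ChIP-seq library per antibody. The submitters' processing notes name CASAVA, Bowtie2, MACS and rn5. Their versions and settings, and any control library, were not given in the sources used here. Neither deposited list states what its score measures, and scores were therefore compared only within a list. No list held overlapping peaks.

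Distances are gaps between peak edges. The sets without Chd7 and with it were checked with bedtools 2.31.1, which returned the same 1869 and 1668 peaks, and the measures were tested on 5 simulated lists of 600 peaks. Analyses ran in Python 3.11.15 with scipy 1.17.1, pandas 2.3.3 and numpy 2.4.6. Weighting used 6 classes of score and 6 of width. Medians carry order-statistic intervals.

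The regions, the alternatives and the rule for naming regions were chosen with earlier results of these data known. That rule takes the 12 highest scores, the highest per chromosome, the 5 farthest from Chd7, the 5 with most and the 5 farthest from other Sox10 peaks, the 3 nearest to each limit, and the 5 strongest Chd7-bound peaks, ties going to the narrower peak. An rn5 sequence or annotation was not used here, so no gene, motif or sequence is given.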

Additional observations from a re-analysis of the deposited data

Results flagged for a closer look

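Chromosome X was left out by the rule but holds peaks of the same kind. Of 46 Sox10 peaks on X with a score of at least 500 and a width below 1500 bp, 35 had no Chd7 peak within 1 kb, a share of 76.1% (95% exact interval 61.2% to 87.4%), and 11 overlapped one. The share over chromosomes 1 to 20 was 52.4%. No test was made, since the peaks come from 1 library per antibody and X was looked at after its low overlap was known.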

How the results depend on the processing

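In all, 6 values (the number, the share, the median distance and the 3 differences from the Chd7-bound peaks) were recomputed under 13 settings that changed the peaks or the measure, giving 56 alternative values; 42 stayed within 1.5 times the count or within the interval of the value, and all 32 alternative differences stayed below 0. Asking that a Chd7 peak lie at least 50% inside the Sox10 peak removed no peak, so its 3 values are not counted. The alternatives reuse many of the same peaks and were given no intervals, so their common sign is not independent evidence. A score minimum of 300 gave 4201 peaks, a share of 58.9% and a difference of -5.28 points for a Sox10 peak within 10 kb. A minimum of 1000 gave 408 peaks, 44.3% and a median distance of 65.7 kb. A width below 1000 bp gave 1129 peaks and 56.4%, and an extension of 5 kb gave 50.4%. With Chd7 peaks of score 100 or more, the share was 74.9%, the distance 305 kb, and the differences were -2.45 points (13.1% against 15.6%) for Chd7 at 1 to 50 kb and -2.52 points for the neighbouring Sox10 peaks that overlap Chd7. That setting also regrouped the strong peaks, to 2670 without such a Chd7 call and 885 with one. For a Sox10 peak within 50 kb of the original sets the difference was -0.962 points, and the intervals of both shares, 86.0% to 89.0% and 86.9% to 90.0%, overlap. The settings also make the lists longer or shorter, and the cause of these shifts was not tested. The count of Sox10 peaks 1 to 10 kb away was added after seeing the data. Without windows of 1 Mb holding 30 or more Chd7 peaks, which contained 8 of the 1869 peaks, no value moved beyond its interval. The planned comparisons of motifs and of transcription starts were not run, as an rn5 sequence and annotation were not used here. No paired analysis was possible because there is 1 library for each antibody, and for the same reason no replicate could be left out. Depth is unknown, so Chd7 below its score floor of 50 cannot be seen.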

Other observations

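The 27 strong Sox10 peaks with Chd7 within 1 kb but not on them mostly stood beside a second Sox10 peak. For 20 of them another Sox10 peak lay less than 1 kb away, and for 19 the nearest Chd7 peak overlapped another Sox10 peak. Their median distance to the next Sox10 peak was 0.514 kb (quartiles 0.365 and 0.969 kb), against 14.7 kb for the strong peaks without Chd7 and 10.6 kb for the Chd7-bound ones. Their median score was 642 and their median width 952 bp.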
